A study of Mus musculus with 26 samples.

Results

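Epha4, Pax3, Wnt6, Wnt10a and Ihh are 5 developmental genes that lie on mouse chromosome 1 within 3.44 Mb, from 74754342 to 78197136 in mm10 coordinates. They were chosen by name, out of 21521 protein-coding genes with a position, and are described with every chromatin domain boundary between and around them. The boundaries come from Micro-C, in which crosslinked chromatin is digested with micrococcal nuclease and sites that touch in the nucleus are read from ligated fragments. The cells were C57BL/6J mouse embryonic stem cells (ESCs) in the G1 phase, of a Bruce-4 derived line with a degradable tag (dTAG) on the cohesin subunit RAD21, given 0.05% v/v DMSO as vehicle. For the 6 libraries of this group the authors deposited 1 list of 3515 boundaries, each an interval of 25 kb. The study's 20 other libraries (ESCs given 500 nM dTAG, which degrades RAD21, or 20 µM A485, which blocks p300 and CBP acetyltransferase activity, and epiblast-like cells given DMSO or dTAG) were not analysed here. All of these cells carry the tag on RAD21, the labels name 1 line, and ESCs are not limb cells. The list has no score, no depth and no replicates, so values below have no error and nothing was tested.

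A topologically associating domain is a stretch of chromosome whose parts contact each other more than they contact sequence beyond its boundaries, and enhancers mostly act on genes of their own domain. Wnt6 and Wnt10a encode secreted Wnt ligands, Ihh the ligand Indian hedgehog that paces cartilage growth, Epha4 a receptor tyrosine kinase that binds ephrins and guides limb motor axons, and Pax3 a transcription factor of neural crest and migrating muscle precursors. The locus is a classic example of what boundaries do: in families with malformed digits, deletions, inversions or duplications that remove or shift a boundary place limb enhancers of the Epha4 domain together with Pax3, Wnt6 or Ihh.

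The 5 genes lay in 3 domains. Wnt6, Wnt10a and Ihh shared a domain of 850 kb that was crowded with genes. Epha4 had a domain of 1900 kb in which it was the 1 protein-coding gene, and its promoter-side end lay 9.89 kb from the boundary that closes this domain toward Pax3. Pax3 lay in a domain of 550 kb, and a further 350 kb domain with no protein-coding gene separated it from the domain of Epha4. From the first to the last of the 5 genes there were 4 boundaries and 5 domains, 2 of which held none of the 5.

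**Figure D1:**
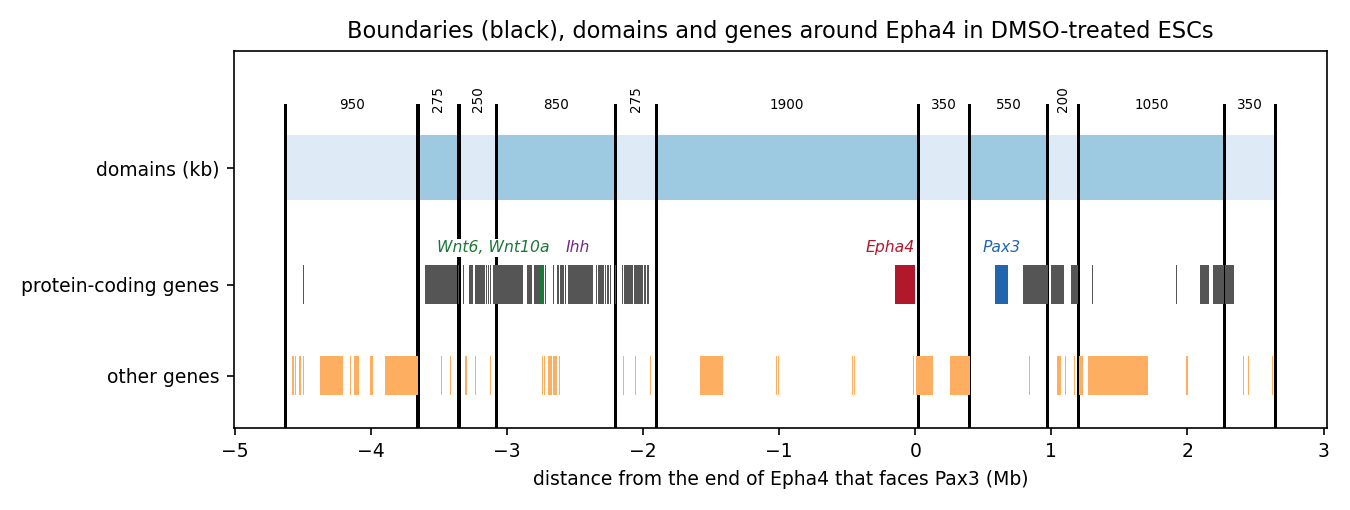
Map of the stretch described, with distance in Mb from the Epha4 end that faces Pax3 on the x axis. Black bars are the 12 boundary intervals, blue blocks the 11 domains with their lengths in kb, and the lower rows show protein-coding and other genes as bars from start to end. The genes crowd around Wnt6, Wnt10a and Ihh, while the 1900 kb domain holds Epha4 at its right edge.

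Promoters are printed for the members that have one in the RefSeq table (GRCm38.p6), because the orientation of Epha4 decides which of its ends faces the boundary, and for genes whose start lies inside a boundary that closes a member's domain. Each runs 5′ to 3′ on the gene's own strand, from 250 bases before the listed start to 50 bases from it on. Capitals mark AGGGGGC, the centre of the motif bound by the insulator protein CTCF, searched on both strands. The Epha4, Ihh, Farsb and Dnpep sequences are on the minus strand and that of Wnt6 is on the plus strand. Of the 5 members, 3 have a promoter in the table, and Wnt10a and Pax3 are named only.
Epha4, chr1:77515039-77515338, start 9.91 kb from a boundary: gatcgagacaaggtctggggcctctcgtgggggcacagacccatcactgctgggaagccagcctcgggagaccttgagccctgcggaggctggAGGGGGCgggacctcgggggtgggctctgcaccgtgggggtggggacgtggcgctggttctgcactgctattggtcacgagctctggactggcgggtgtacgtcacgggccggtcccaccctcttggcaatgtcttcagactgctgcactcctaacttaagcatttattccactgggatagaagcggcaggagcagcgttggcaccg
Ihh, chr1:74951623-74951922, start 348 kb from a boundary: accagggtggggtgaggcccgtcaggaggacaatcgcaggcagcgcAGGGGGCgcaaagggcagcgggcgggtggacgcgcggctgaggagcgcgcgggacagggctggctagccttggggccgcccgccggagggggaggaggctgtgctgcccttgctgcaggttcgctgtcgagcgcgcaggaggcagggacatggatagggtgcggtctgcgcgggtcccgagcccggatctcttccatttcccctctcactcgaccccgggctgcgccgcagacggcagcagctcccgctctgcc
Wnt6, chr1:74771642-74771941, start 322 kb from a boundary: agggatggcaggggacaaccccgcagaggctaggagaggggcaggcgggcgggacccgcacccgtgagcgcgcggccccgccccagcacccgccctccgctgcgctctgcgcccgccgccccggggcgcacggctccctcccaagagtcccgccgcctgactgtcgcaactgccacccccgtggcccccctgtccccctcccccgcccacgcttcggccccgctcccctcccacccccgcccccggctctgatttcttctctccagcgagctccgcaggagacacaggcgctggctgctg
Farsb, chr1:78488848-78489147, start inside a boundary: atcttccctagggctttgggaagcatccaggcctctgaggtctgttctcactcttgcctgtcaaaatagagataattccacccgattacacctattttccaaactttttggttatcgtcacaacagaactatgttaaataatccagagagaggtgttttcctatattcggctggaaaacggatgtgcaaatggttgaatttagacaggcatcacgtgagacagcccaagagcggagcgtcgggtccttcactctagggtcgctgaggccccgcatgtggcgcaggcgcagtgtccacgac
Dnpep, chr1:75316968-75317267, start inside a boundary: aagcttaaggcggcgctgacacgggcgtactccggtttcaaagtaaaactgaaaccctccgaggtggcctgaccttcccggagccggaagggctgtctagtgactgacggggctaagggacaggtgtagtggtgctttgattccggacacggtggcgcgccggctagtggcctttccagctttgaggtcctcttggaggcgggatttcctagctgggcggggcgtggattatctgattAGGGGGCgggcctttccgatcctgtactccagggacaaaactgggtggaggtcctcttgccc

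The Epha4 promoter held AGGGGGC 157 bases before the start and the Ihh promoter 204 bases before it. The Wnt6 and Farsb promoters did not hold these letters in either direction. Dnpep has 2 listed starts inside the boundary, and the one printed held the letters 12 bases before the start while the other did not. The same letters occur in 10.6% of the 32851 promoters of the table. TATAAA, the TATA box, was in none of these 6 promoters and is in 13.6% of all. GC content was 76.7% for Wnt6, 72.7% for Ihh and 64.0% for Epha4, against a median of 52.7% over all promoters. Motif matches describe these windows and are not binding sites.

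The ligand genes came first along the chromosome. Wnt6 (chr1:74754342-74785322) and Wnt10a (chr1:74792019-74804176) are neighbours with 6.70 kb between their ends, and Ihh (chr1:74945315-74951672) begins 141 kb beyond Wnt10a. Their common domain ran from 74450001 to 75300000. All 3 lay far from its edges: Wnt6 was 304 kb and Wnt10a 342 kb from the boundary on the left, and Ihh was 348 kb from the boundary on the right. Of all protein-coding genes, 82.9% lay nearer to a boundary than Wnt6, 85.8% nearer than Wnt10a and 86.2% nearer than Ihh, and the median gene lay 98.9 kb away.

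This domain held 32 protein-coding genes, or 3.76 per 100 kb, against 0.807 per 100 kb over all domains. Among the 3495 domains of the genome, 68 held more protein-coding genes. In length it was less unusual, since 75.7% of all domains were shorter than 850 kb. Its first gene was Usp37, a deubiquitinase gene, and its last was Resp18. Between them lay, among others, Cyp27a1, a sterol hydroxylase gene, Cdk5r2, an activator of the kinase Cdk5, and the transcription factor gene Fev. Nhej1, which encodes a DNA end-joining factor and whose introns are known to carry Ihh enhancers, lay wholly in the domain beside Ihh. It also held 4 long non-coding RNA genes, the tRNA gene n-TGgcc3 and Mir375.

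Protein-coding gene ends lay inside both boundaries of the ligand domain. This is no particular trait, since 64.3% of all boundaries have such an end inside or within 10 kb. The boundary on the left, chr1:74425001-74450000, held the meeting ends of Vil1, which encodes the actin-bundling protein villin, and Usp37. The boundary on the right, chr1:75300001-75325000, contained the whole of Dnpep, an aspartyl aminopeptidase gene.

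Between Ihh and Epha4 lay a short, gene-rich domain of 275 kb from 75325001 to 75600000. It held 10 protein-coding genes, 3.64 per 100 kb, beginning with Des (desmin, the muscle intermediate filament) and Speg (a muscle kinase) and ending with Inha (the inhibin alpha subunit), Stk11ip and Slc4a3 (an anion exchanger). The boundary after it, chr1:75600001-75625000, had no end of any annotated gene within 10 kb. Slc4a3 ended 40.6 kb to its left, and on its right the next protein-coding gene was Epha4, 1742 kb away.

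Epha4 (chr1:77367182-77515107) lay at the far edge of its domain, which ran from 75625001 to 77525000. Its midpoint stood at 95.6% of the domain's length. The gene is on the minus strand, so its start is the end that faces the boundary chr1:77525001-77550000. Of all domains 94.5% were shorter, and on chromosome 1 there were 12 longer domains among 259. Of the 187 longer domains in the genome, 64 held 1 protein-coding gene or none. The other 9 genes in the domain were 4 long non-coding RNA genes, 3 pseudogenes, and the miRNA genes Mir6343 and Mir6352, the latter inside the Epha4 gene body.

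No protein-coding gene ended inside the boundary beside Epha4. It was spanned by the long non-coding RNA gene Gm32793, which is on the plus strand and begins 7.08 kb from the Epha4 end. Its first listed start thus lay between Epha4 and the boundary interval, and both genes run away from the stretch between them. This order refers to the edge of a 25 kb interval, within which the boundary cannot be placed more finely. Epha4 was the 1 of the 5 genes with an end within 10 kb of a boundary. Over all protein-coding genes 18.3% were this close, so the count does not set these 5 genes apart. Epha4 passed the limit narrowly, at 9.89 kb. Within 50 kb it was again the 1 gene of 5, against 35.6% of all protein-coding genes.

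Beyond that boundary came 350 kb, from 77550001 to 77900000, with no protein-coding gene. Such domains were not common: 212 of 3495, or 6.07%, held none, and among the 650 domains of 300 to 400 kb there were 34. Its 5 genes were the long non-coding RNA genes Gm32793, Gm32974, Gm33083 and Gm33030 and the small nuclear RNA gene Gm26263. The next boundary, chr1:77900001-77925000, held the end of Gm33030. Gm33083, on the minus strand, had its promoter-side end 3.70 kb from this boundary, and Gm26263 lay 1.6 kb from it. Thus Epha4 and Pax3 were separated by 2 boundaries with a domain between them.

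Pax3 (chr1:78101267-78197136) lay in the inner part of its domain, from 77925001 to 78475000, 176 kb from the left and 278 kb from the right boundary. Of all protein-coding genes 66.8% lay nearer to a boundary. The domain had a usual length, with 54.0% of domains shorter, and a usual content of 4 protein-coding genes, or 0.727 per 100 kb. The others were Gm2102, Sgpp2, which encodes a sphingosine phosphate phosphatase, and Farsb, which encodes a subunit of phenylalanyl-tRNA synthetase. Farsb crossed into the boundary that closes the domain, chr1:78475001-78500000, and its start lay inside it.

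**Figure D2:**
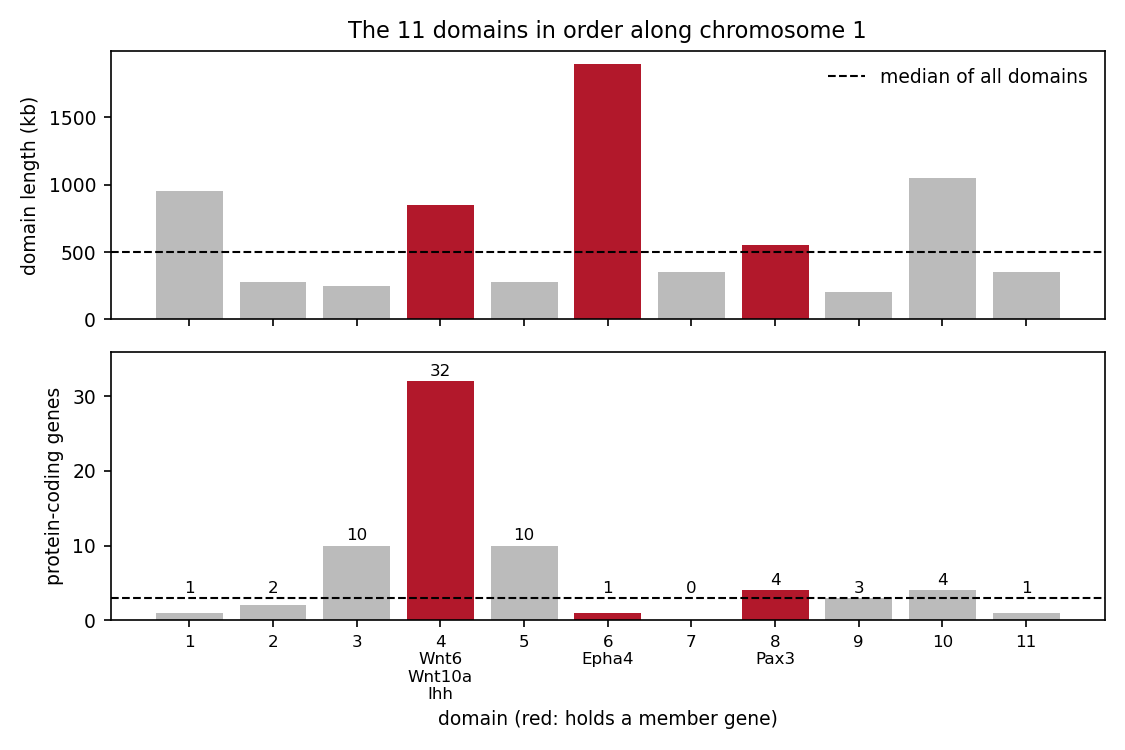
Length in kb (upper bars) and number of protein-coding genes (lower bars) of the 11 domains in order along chromosome 1, with red bars for domains that hold a member and dashed lines for the medians of all domains, 500 kb and 3 genes. The 1900 kb Epha4 domain holds 1 gene, and the 850 kb domain of Wnt6, Wnt10a and Ihh holds 32.

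Genes were unevenly spread across the locus. The 5 domains from Wnt6 to Pax3 held 32, 10, 1, 0 and 4 protein-coding genes in order. The first 2 domains made up 28.7% of their length and held 89.4% of their genes, 42 of 47. The Epha4 domain made up 48.4% of the length.

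**Figure D3:**
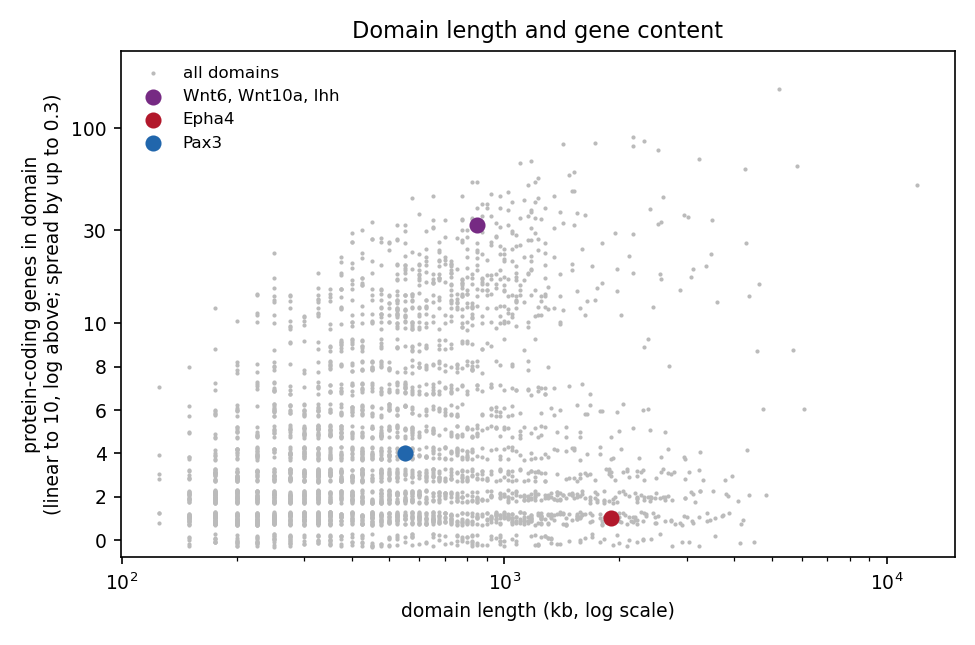
Each grey point is 1 of the 3495 domains, with its length in kb (log scale) against its number of protein-coding genes (linear to 10, log above, points spread by up to 0.3), and coloured points are the domains of the members. The Epha4 domain (1900 kb, 1 gene) and the domain of Wnt6, Wnt10a and Ihh (850 kb, 32 genes) lie on opposite sides of the cloud, with Pax3 (550 kb, 4 genes) inside it.

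The surroundings were described over 3 further domains on each side, a stretch of 7.30 Mb with 12 boundaries and 11 domains. Domain lengths ranged from 200 to 1900 kb with a median of 350 kb. On the left, toward Wnt6, came a 250 kb domain with 10 protein-coding genes, among them the chemokine receptor gene Cxcr1, then 275 kb with Tns1 and Rufy4, then 950 kb whose 1 protein-coding gene is Tnp1, a sperm chromatin protein gene. On the right of Pax3 came 200 kb with Mogat1, Acsl3 and Utp14b, then 1050 kb with Kcne4, Scg2, Ap1s3 and Wdfy1, then 350 kb with Serpine2.

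A protein-coding gene ended or began inside or within 10 kb of 8 of the 12 boundaries, against 64.3% of all 3515. The share is near the background and is no feature of this locus. The 8 were those at Igfbp5, at Rufy4 and Cxcr2, at Vil1 and Usp37, at Dnpep, at Epha4, at Farsb, at Acsl3, and at Wdfy1, Mrpl44 and Serpine2. The other 4 were the boundary before Tns1, the outermost boundary on the right, and, closest to the members, those on the left of the Epha4 domain and on the left of the Pax3 domain.

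Fewer boundaries lay between the ligand genes and Epha4 than between most gene pairs at that distance. Ihh and Epha4, 2493 kb apart by their midpoints, had 2 boundaries between them. Of 61749 pairs of protein-coding genes within 5% of that distance on any chromosome, the median was 4 (quartiles 3 and 5), 84.3% had more than 2 and 6.51% had fewer. Wnt6 and Epha4, 2671 kb apart, and Wnt10a and Epha4, 2643 kb apart, also had 2 against a median of 4. These 3 pairs cross the same long Epha4 domain and are not independent.

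Epha4 and Pax3 stood the other way, with a count at the upper quartile. They were 708 kb apart with 2 boundaries between them, where the median of 24376 pairs was 1 (quartiles 1 and 2). Of these pairs 28.1% also had 2, 68.4% had fewer and 3.43% had more, so the count was not rare. Ihh and Pax3, 3201 kb apart, had 4 against a median of 5 (quartiles 4 and 6), as did Wnt6 and Wnt10a with Pax3 (median 5). Wnt6, Wnt10a and Ihh had 0 boundaries among themselves, as had the median pair at their distances.

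**Figure D4:**
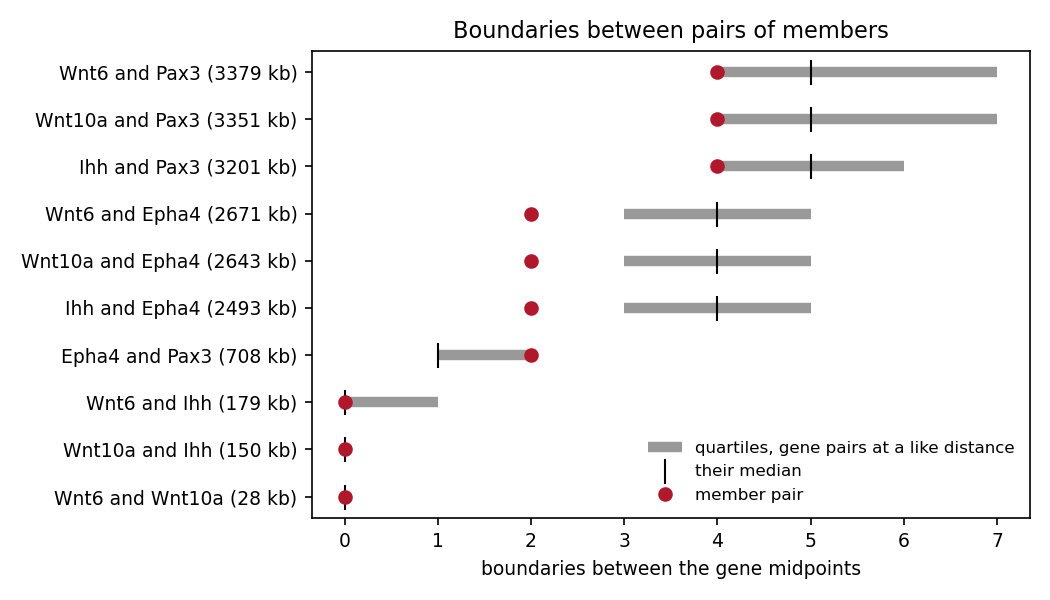
Number of boundaries between the midpoints of each of the 10 pairs of members (red points), with the median (tick) and quartiles (grey bar) of all protein-coding gene pairs within 5% of the same distance. Pairs of a ligand gene with Epha4 lie at 2, left of their bars, and Epha4 with Pax3 lies at 2, at the upper quartile.

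Gene deserts, stretches of at least 500 kb without a protein-coding gene, lie on both sides of Epha4. Slc4a3 and Epha4 are 1808 kb apart, with 1 boundary in that desert. Of the genome's 639 deserts, 91 were longer, and the 35 deserts within 10% of its length also had a median of 1 boundary. The desert of 586 kb between Epha4 and Pax3 held 2 boundaries, or 3.41 per Mb, where the median of 120 deserts of like length was 1 (quartiles 0 and 1). These are the same 2 boundaries that were counted for the pair of Epha4 and Pax3, so this is not a separate observation. Both deserts together had 3 boundaries, or 1.25 per Mb, against 0.605 over all deserts and 0.598 on chromosome 1. With deserts of at least 1000 kb, which leaves the Slc4a3 to Epha4 desert alone here, the value was 0.553 per Mb beside 0.479 over all. With deserts between all annotated genes it was 0 beside 0.268. That 0 comes from the gap between Mir6343 and Gm2060 alone. This gap lies wholly inside the Epha4 domain, so no direction can be read from it.

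Relatives of the 5 genes were placed in different ways. Of the 14 Eph receptor genes, 6 lay within 10 kb of a boundary, or 42.9% beside 18.3% of all protein-coding genes: Epha3, Epha4, Epha6, Epha7, Ephb2 and Ephb3. Their median distance was 24.6 kb beside 98.9 kb. Ephb1 and Ephb6 lay somewhat farther, at 20.3 and 28.8 kb, and Epha5 was farthest at 555 kb. Of the 14, 7, Epha4 among them, were the 1 protein-coding gene of their domain, 50.0% beside 3.55% of all protein-coding genes. Of these 7, 6 were the ones near a boundary. Among all 764 genes that were alone in a domain, 33.4% were near one. Epha7 had a domain of 3125 kb to itself and its start inside a boundary. Epha3 lay alone in 950 kb with its start inside a boundary. Not all these domains were long like the 1900 kb of Epha4. Ephb2 measures 189 kb in a domain of 200 kb, and Ephb3 was alone in 225 kb. For Ephb2 and Epha6 the end near a boundary was not the listed start, which lay 14.0 and 30.5 kb from one. Epha6, at 8.57 kb, is counted by its midpoint, but the gene measures 969 kb and crosses both boundaries of its 875 kb domain. With no window the share of Eph receptor genes was 21.4%, beside 11.7% of all genes, and Epha4 was then not counted.

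The ephrin genes, which encode the ligands of these receptors, had a median distance of 376 kb, and 2 of 8 were within 10 kb of a boundary, Efna5 and Efnb1, or 25% beside 18.3% of all genes. Efna1, Efna3 and Efna4 are neighbours in 1 domain of 2175 kb with 81 protein-coding genes, so they are not separate cases. Of the 7 ephrin genes that lay in a domain, 0 were alone there.

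Among the 9 Pax genes, 1 lay within 10 kb of a boundary, Pax9, whose start was inside one. This was 11.1% beside 18.3% of all genes, and 33.3% lay within 50 kb beside 35.6%. Their median distance was 146 kb, with Pax3 at 176 kb and Pax6, the eye regulator, farthest at 394 kb. Pax1 and Pax7 lay just beyond the window, at 11.9 and 16.5 kb, and each was alone in its domain, as was Pax2. Pax7, the closest relative of Pax3, had a domain of 175 kb.

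Of the other hedgehog ligand genes, Dhh was placed like Ihh, far from a boundary in a gene-rich domain with a Wnt pair, and Shh was not. Ihh lay 348 kb from a boundary in a domain of 850 kb with 32 protein-coding genes. Shh lay 6.84 kb from a boundary in a domain of 875 kb with 3 protein-coding genes. Dhh lay 382 kb from one in a domain of 1500 kb with 48, which also holds the paired Wnt ligand genes Wnt1 and Wnt10b. Of 17 hedgehog pathway genes, 2 were within 10 kb (Gli1, a transcription factor of the pathway, inside a boundary, and Shh), or 11.8% beside 18.3% of all genes. Within 50 kb the direction turned, with 47.1% beside 35.6%. Their median distance was 53.5 kb. Smo, the signal transducer, was farthest at 614 kb.

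Of the 8 clustered Wnt ligand genes, in 4 pairs, 0 lay within 50 kb of a boundary, beside 35.6% of all protein-coding genes. Their distances ran from 132 kb (Wnt3) to 342 kb (Wnt10a). Each pair shared 1 domain: Wnt6 with Wnt10a, Wnt1 with Wnt10b, Wnt3 with Wnt9b, and Wnt3a with Wnt9a. The genes of a pair lie side by side, so these are 4 placements and not 8 separate cases. The domains held from 17 to 48 protein-coding genes, so the gene-rich setting of Wnt6 and Wnt10a was shared by the other 3 pairs.

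Of 30 limb patterning genes, 9 lay within 10 kb of a boundary, including Fgf8, Hand2, Hoxa13 and Hoxd13, or 30.0% beside 18.3%. Within 50 kb there were 20, or 66.7% beside 35.6%. With no window the direction turned, with 3.33% beside 11.7%. Wnt5a, a ligand of limb outgrowth, had an end inside a boundary, and Bmp2 was farthest at 537 kb. None of the 5 members is on this list.

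**Figure D5:**
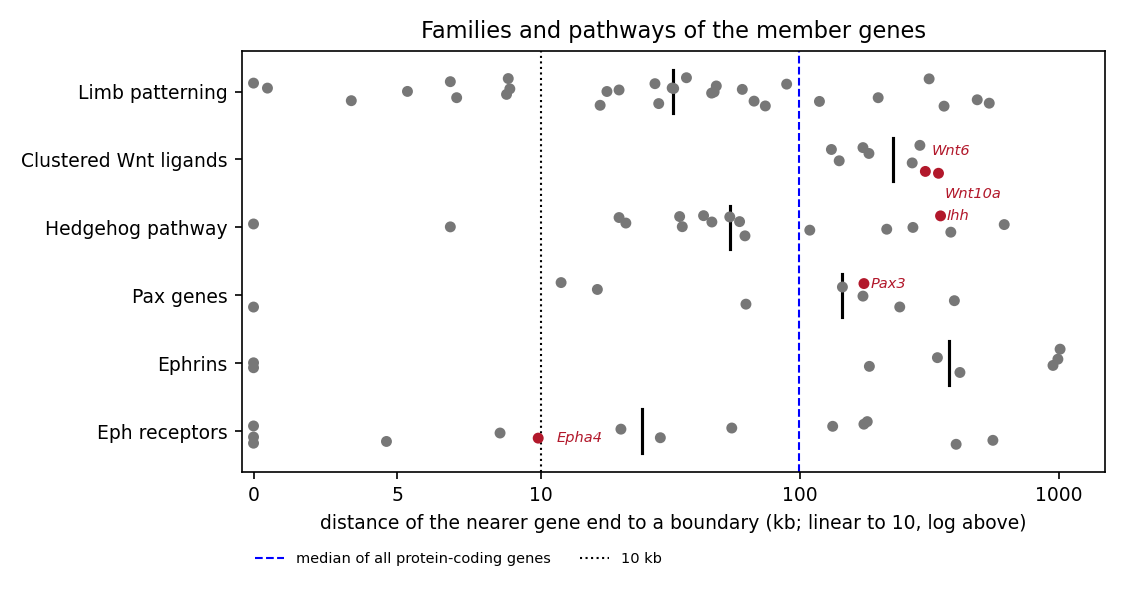
Distance in kb from the nearer end of each gene to a boundary (linear to 10 kb, log above) for 6 gene lists, with members in red, the median of each list as a black tick, and the median of all protein-coding genes, 98.9 kb, as a dashed line. Of the Eph receptors 6 lie left of the dotted 10 kb line, Epha4 just inside it, and the clustered Wnt ligands all lie right of the dashed line.

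The genes most like the members were found over 19750 protein-coding genes in domains, by domain length, distance to a boundary and number of protein-coding genes in the domain. Nearest to Epha4 were Mef2c, a transcription factor gene of heart and brain, 7.92 kb from a boundary and alone in 1875 kb, then Lsamp (6.68 kb, 2125 kb) and Fat4 (9.67 kb, 1550 kb). Gene length was not compared: Lsamp measures 2197 kb, more than its domain, and Epha4 measures 148 kb. Nearest to Ihh were Gtf3c2, Slc5a6 and Eif2b4, which share 1 domain of 850 kb with 34 protein-coding genes. Nearest to Pax3 were Armc2, Cdkn2c and Flt1, in domains of 550, 550 and 525 kb with 4 protein-coding genes each.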

How the data were processed

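The labels name 1 list of boundary intervals, with start and end in mm10, for all 6 DMSO-treated ESC libraries. It is taken here as made from their pooled Micro-C contacts. Alignment with BWA 0.7.17 and processing with Juicer 1.22.01 are named in the submitters' processing notes. How boundaries were called is not given in the sources used here, and depth is unknown. Each interval is 25 kb wide, as tested on the file. Positions count from 1.

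Genes came from RefSeq GRCm38.p6, the assembly also called mm10. Scaffold genes listed after each chromosome's sorted genes were dropped (345), leaving 49209 genes of which 21521 are protein-coding. A domain runs between neighbouring boundaries, a gene belongs to the domain of its midpoint, and distance runs from the nearer gene end to the interval edge. Strand came from the promoter table, and Wnt6 has a listed start inside its annotated gene body. The members and lists were chosen with earlier results of these data known. Genes were named by a fixed rule: the members, the genes of their domains and boundaries (the outermost and those near a boundary where there were over 10), and in each list genes near a boundary (at most 4), the nearest and the farthest. Counts of genes alone in a domain and further names were added after values were seen. The computation was tested on simulated data with planted distances. Python 3.11.15, numpy 2.4.6, pandas 2.3.3 and matplotlib 3.10.9 were used.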

Additional observations from a re-analysis of the deposited data

How the results depend on the processing

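Of 67 alternative values, 49 stayed within 25 kb (lengths and distances, the width of a boundary interval) or within 1.5 times (counts, shares and densities) of the value given above, and 18 moved. All 3 member domains, the 4 boundaries from Wnt6 to Pax3 and the medians of gene pairs at a like distance were among those that held. The domain lengths also stayed but could not do otherwise, since measuring from middle to middle adds 25 kb to every domain, which is the limit itself. Distances to the middle of a boundary interval could not pass that limit either. The number of members near a boundary was 0 with no window or by gene midpoint, and 1 within 50 kb or by listed start. By gene midpoint Epha4 lay 83.9 kb and Pax3 224 kb from a boundary. Counting all annotated genes gave 10 in the Epha4 domain and 7 in that of Pax3. Boundaries per Mb in the deserts of the locus were 0.553 for deserts of at least 1000 kb and 0 for deserts between all annotated genes, where all deserts had 0.268. With no window the shares near a boundary were 21.4% of Eph receptor, 5.88% of hedgehog pathway and 3.33% of limb patterning genes, beside 11.7% of all, so that limb patterning genes turned from above to below the share of all genes. Within 50 kb they were 33.3% of Pax, 47.1% of hedgehog pathway and 66.7% of limb patterning genes, beside 35.6%, so that hedgehog pathway genes turned from below to above. For the deserts of the locus, the value with all annotated genes comes from the gap between Mir6343 and Gm2060 alone. That gap lies inside the Epha4 domain, so no direction can be read from it. Over 5 domains on each side the median domain length was 525 kb. No replicate could be left out, because 1 boundary list stands for all libraries of the group. No paired analysis was possible because the list has no values per library.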

Other observations

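Epha4 was set beside other genes that are the 1 protein-coding gene of a long domain, a comparison chosen after its values were seen. Of 300 domains of at least 1500 kb, which held a median of 2 protein-coding genes, 77 held 1. In 17 of these (22.1%) the gene had an end within 10 kb of a boundary, beside 18.3% of all protein-coding genes and 33.4% of all genes alone in a domain. In 29 (37.7%) it lay within 50 kb, beside 35.6% of all, and the median distance was 138 kb. Besides Epha4, the 17 included Epha7, the transcription factor gene Mef2c, Cited2, a transcriptional co-regulator gene with an end inside a boundary of a 2450 kb domain, and Ppargc1a, a metabolic co-activator gene with an end inside a boundary of its 1825 kb domain. Others were very long genes such as Lrp1b (2058 kb), Lsamp (2197 kb) and Ctnna3 (1574 kb), each over 1500 kb, whereas Epha4 measures 148 kb. The other end of the range held Nova1, a neuronal splicing factor gene that lay 1498 kb from the nearest boundary of a 4150 kb domain.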
